A study of Mus musculus with 30 samples.

Results

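The 6 mouse actin genes were described on 30 arrays: Acta1 (skeletal muscle alpha-actin), Actc1 (cardiac alpha-actin), Acta2 and Actg2 (the smooth muscle alpha- and gamma-actins), and Actb and Actg1 (the cytoplasmic beta- and gamma-actins). Their members were all probe sets that the platform annotation gave to these symbols, 12 of the 45101 probe sets on the array. Of these, 3 were array controls for parts of the Actb transcript, and 9 entered the fit, which held 45037 probe sets. Acta2 had 3 probe sets and Actb had 5, and each of the other genes had 1 (1427735_a_at for Acta1, 1415927_at for Actc1, 1422340_a_at for Actg2 and 1415779_s_at for Actg1). None of the 12 was left out for a low value.

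Actins are the monomers of thin and cytoplasmic filaments, and the 6 proteins differ in few residues. In developing skeletal muscle, smooth muscle and cardiac alpha-actin are made early and skeletal alpha-actin becomes the main adult form, while the cytoplasmic actins are made in nearly every cell. The striated and smooth muscle actin genes carry CArG boxes, sites for the serum response factor SRF, whose partners of the MRTF family bind actin monomers, and the bHLH factor MyoD binds E-boxes at many muscle genes.

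The cells were mouse embryonic fibroblasts (MEFs) of MyoD-/-/Myf5-/- genotype in every group, so the controls also lacked both factors by label. A retrovirus carried MyoD fused to the hormone binding domain of the estrogen receptor (ER-MyoD wt), the same fusion with lysines 99, 102 and 104 exchanged for residues that cannot take an acetyl group (ER-MyoD RRR), or no insert (empty retrovirus). Cells were kept in differentiation medium with beta-estradiol, and total RNA was taken from ER-MyoD wt at 0, 6, 12 and 24 h and from the other 2 at 6, 12 and 24 h, with 3 arrays in each of 10 groups. Expression is thus that of transduced fibroblasts pushed towards muscle from a retrovirus, not of muscle tissue, and a 0 h group was analysed here for ER-MyoD wt alone. Nothing in the labels says that the 3 arrays of a group came from separate cultures, so each p-value refers to the spread among the arrays themselves, and that spread may be technical.

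Signals are linear intensities per probe set, with array medians of 38.0 to 64.1 and a highest signal per array of 11260 to 20986. Actb and Actg1 lay near the top of this scale in every group, and Acta2 in the ER-MyoD groups. Differences may be compressed there, which was not tested. The Myod1 probe set 1418420_at read 298 to 1299 on the ER-MyoD arrays and 145 to 256 on the empty retrovirus arrays, and it did not pass the test between ER-MyoD RRR and wt at 6, 12 or 24 h (log2 differences -0.22, -0.61 and -0.38). The Myf5 probe set read 152 to 703 over all groups. Where these probes lie relative to the deleted parts is not given in the sources used here, so neither signal checks the genotype. Of 14 skeletal muscle markers, 13 were higher in ER-MyoD wt than in empty retrovirus at 24 h, against 10.5% of all 18193 genes. Of 10 smooth muscle markers, Myh11, the smooth muscle myosin heavy chain, and Cnn1, calponin, were near the bottom of the scale, with group means of 4.65 to 34.0 and 5.56 to 17.5. Both were named after their values were seen. The summed signal of all 10 markers was not low: it ran from 8633 to 11626 in ER-MyoD wt at 0 h, most of it Tagln. The summed signal of 9 fibroblast markers was between 21570 and 56627 on every array. At 24 h, 8 of these 9 were lower in ER-MyoD wt than in empty retrovirus (13.1% of all genes), among them Pdgfra, the PDGF alpha receptor (-4.49 on the log2 scale), and 6 were higher in ER-MyoD RRR than in wt (2.69% of all genes). Of 12 cardiac markers Gata4 (1.82) and of 5 macrophage and blood markers Csf1r (0.64) were higher in ER-MyoD wt than in empty retrovirus at 24 h. None of 5 endothelial and 5 epithelial markers passed there in limma, where 0 and 1 had an unadjusted p under 0.05. The part of these other cell types in the actin results was not tested. In such bulk samples, fewer cells of a type and less RNA per cell cannot be told apart.

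RefSeq promoter sequences (GRCm38.p6) were held for 4 of the 6 genes, matched by symbol. The 250 bases before the annotated start are shown because the 2 striated genes, both of which rose by 24 h in ER-MyoD cells, can be read beside Acta2 and Actg1, which did not. All 4 genes lie on the minus strand, the sequences run 5′ to 3′ in the direction of transcription, and capitals mark CArG boxes: CC, 6 bases of A or T with at most 1 G or C among them, then GG.
Acta1, chr8:123894776-123895025: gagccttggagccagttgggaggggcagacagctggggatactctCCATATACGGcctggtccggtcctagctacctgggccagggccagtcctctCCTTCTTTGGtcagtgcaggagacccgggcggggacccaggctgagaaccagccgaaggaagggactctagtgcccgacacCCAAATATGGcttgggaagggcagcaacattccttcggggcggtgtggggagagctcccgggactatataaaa
Actc1, chr2:114052876-114053125: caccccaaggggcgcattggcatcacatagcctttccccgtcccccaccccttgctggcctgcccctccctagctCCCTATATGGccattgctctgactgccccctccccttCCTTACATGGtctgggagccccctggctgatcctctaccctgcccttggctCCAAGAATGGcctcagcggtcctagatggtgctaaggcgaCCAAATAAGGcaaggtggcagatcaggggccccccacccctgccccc
Acta2, chr19:34255374-34255623: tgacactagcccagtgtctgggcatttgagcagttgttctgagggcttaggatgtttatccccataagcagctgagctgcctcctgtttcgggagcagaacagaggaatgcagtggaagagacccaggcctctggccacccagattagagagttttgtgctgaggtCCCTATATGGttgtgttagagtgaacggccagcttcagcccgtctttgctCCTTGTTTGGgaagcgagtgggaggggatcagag
Actg1, chr11:120348496-120348745: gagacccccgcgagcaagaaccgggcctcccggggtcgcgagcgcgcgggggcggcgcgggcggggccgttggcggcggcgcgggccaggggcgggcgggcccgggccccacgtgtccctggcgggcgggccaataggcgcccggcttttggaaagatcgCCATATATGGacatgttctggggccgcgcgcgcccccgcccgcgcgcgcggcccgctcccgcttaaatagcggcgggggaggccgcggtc

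The capitals show 4 such boxes in Actc1, 3 in Acta1, 2 in Acta2 and 1 in Actg1, and 8.59% of the 32851 promoter windows of this length in the table held at least 1. A box with only A and T in its core was found once each in Acta1 (from 73 bases before the start, first base at -73), Actc1 (-47) and Actg1 (-90) and not in the Acta2 window, against 1.47% of all windows. E-boxes (CANNTG, both strands) were found 2 times in Acta1, 3 times in Acta2, once in Actg1 and not in the Actc1 window (66.2% of all windows). The Sp1 motif GGGCGG (both strands) was found 6 times in Actg1 and 2 times in Acta1 (32.7% of all windows). A match is a description of these letters only.

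The striated actins rose with time in both ER-MyoD constructs and stayed near the bottom of the scale with empty retrovirus. Actc1, the alpha-actin of heart and of embryonic skeletal muscle, read 126, 76.8 and 111 in the 3 ER-MyoD wt arrays at 0 h and 340, 323 and 367 at 6 h. It read 1211, 1171 and 1435 at 12 h, and 7525, 8818 and 8688 at 24 h. Each ER-MyoD wt time lay above the one before without overlap, and 24 h exceeded 0 h by 5.95 ± 0.29 on the log2 scale (SE, adjusted p = 2.88e-15, limma). With ER-MyoD RRR, Actc1 read 132, 148 and 219 at 6 h, 451, 563 and 473 at 12 h, and 5986, 5791 and 6067 at 24 h. The 9 empty retrovirus arrays read 4.36 to 55.3, below every ER-MyoD array, and their 3 times overlapped. Here and below, log2 differences are of log2(signal + 16) after quantile normalization, which understates the changes of low signals.

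Acta1, the main actin of adult skeletal muscle, moved later. It read 298, 223 and 179 in ER-MyoD wt at 0 h, 229, 219 and 184 at 6 h, and 282, 365 and 210 at 12 h, and these 3 groups overlapped. At 24 h it read 1934, 2102 and 1916, well clear of all other groups. ER-MyoD wt at 24 h exceeded 0 h by 2.96 ± 0.38 (adjusted p = 5.18e-07), while 12 h minus 0 h was 0.20 (95% interval -0.57 to 0.98, adjusted p = 0.848). With ER-MyoD RRR, Acta1 read 90.1, 7.16 and 110 at 6 h, 97.7, 91.4 and 85.3 at 12 h, and 775, 994 and 1021 at 24 h. The reading of 7.16 stood among those of the empty retrovirus arrays, which ran from 5.35 to 23.7. It came from the array with the highest ratio of the 3′ to the 5′ Actb control, 3.61, and of the Gapdh controls, 2.44, which are used as measures of RNA degradation, and the part of this in the result was not tested.

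Actg2, the gamma-actin of visceral smooth muscle, ran the other way. It read 2076, 2146 and 1971 in ER-MyoD wt at 0 h, 1234, 1262 and 1185 at 6 h, 927, 828 and 680 at 12 h, and 158, 155 and 105 at 24 h. No 2 of these times overlapped, and 24 h was lower than 0 h (log2 difference -3.65 ± 0.27, adjusted p = 1.24e-11), at 6.74% of the 0 h mean. In ER-MyoD RRR it read 288, 177 and 275 at 6 h, 135, 126 and 93.4 at 12 h, and 61.1, 62.7 and 87.2 at 24 h, all below ER-MyoD wt at the same time. The empty retrovirus arrays read 12.7, 28.3 and 9.68 at 6 h, 3.37, 1.86 and 21.6 at 12 h, and 59.5, 21.9 and 28.3 at 24 h, below both constructs at each time.

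Acta2, the alpha-actin of vascular smooth muscle and of activated fibroblasts, was high in every ER-MyoD group and rose late with the empty retrovirus. Its brightest probe set, 1416454_s_at, read 9784, 15312 and 10057 in ER-MyoD wt at 0 h, 10025, 13049 and 9474 at 6 h, 9560, 9637 and 9244 at 12 h, and 7684, 9236 and 7398 at 24 h. With ER-MyoD RRR it read 8446, 8842 and 9329 at 6 h, 5908, 6904 and 5933 at 12 h, and 6404, 6259 and 6774 at 24 h. With the empty retrovirus it read 1008, 990 and 1225 at 6 h and 882, 1386 and 1256 at 12 h, then 4173, 5136 and 4768 at 24 h, still below every ER-MyoD array. The rise in empty retrovirus cells from 6 to 24 h was 2.16 ± 0.10 on the log2 scale (adjusted p = 3.89e-15), or 4.37-fold in mean signal. The suffix of this probe set, shared by that of Actg1, marks probes that may match transcripts of several genes. The other 2 Acta2 probe sets were dim, with highest signals of 57.7 (1444105_at) and 41.9 (1456658_at), and their replicates differed by a median of 4.38-fold and 2.62-fold.

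The probe sets standing for the cytoplasmic actins, which lay near the top of the scale where differences may be compressed, varied least of the 6 genes. Actb read 7380 to 14473 over all 30 arrays with 1436722_a_at, its group means lay between 9240 ± 1400 (SD, n = 3, ER-MyoD RRR at 12 h) and 11126 ± 2911 (ER-MyoD wt at 0 h), and all 9 pairs of neighbouring groups in the order of levels overlapped. Actg1 read 6492 to 13605, from 7585 ± 1019 (empty retrovirus at 24 h) to 11425 ± 1905 (ER-MyoD wt at 0 h), and again all 9 neighbouring pairs overlapped. Actg1 in ER-MyoD wt was lower at 24 h than at 0 h by 0.47 on the log2 scale (log2 difference -0.47 ± 0.09, adjusted p = 0.00029), while Actb 1436722_a_at did not pass the test (log2 difference -0.14, 95% interval -0.40 to 0.13, adjusted p = 0.561).

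**Figure D1:**
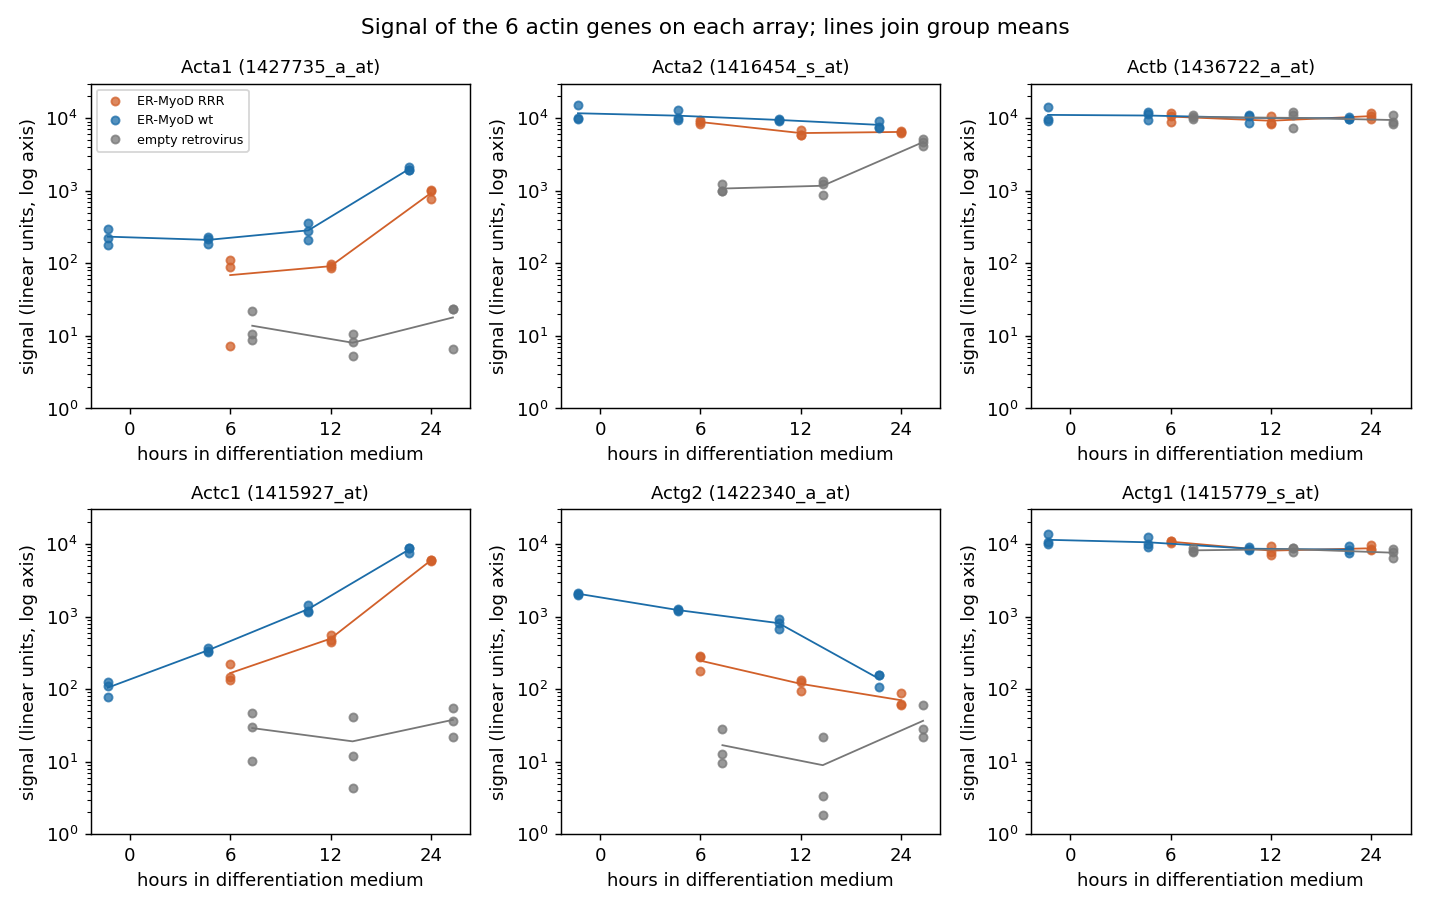
Signal of the probe set standing for each actin gene (linear units on a log axis) against hours in differentiation medium, 1 point per array, with lines through the means of 3 arrays. Actc1 climbs to between 7525 and 8818 in ER-MyoD wt at 24 h, Actg2 falls to between 105 and 158, and Actb and Actg1 stay between 6492 and 14473 throughout.

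The order of group levels was clearest for Actc1, where 2 of 9 neighbouring pairs overlapped, both among the empty retrovirus groups. For Actg2, 3 of 9 overlapped: both pairs among the empty retrovirus groups, and ER-MyoD RRR at 12 h with ER-MyoD wt at 24 h. For Acta1 and Acta2, 6 of 9 overlapped each. In both striated genes the 2 highest groups were ER-MyoD wt and then RRR at 24 h, and in Actg2 the 3 highest were ER-MyoD wt at 0, 6 and 12 h.

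Actb was also read by other probe sets, and they did not behave alike. The second fitted probe set, 1419734_at, ran from 171 to 2873, and replicates of a group differed by a median of 3.02-fold and by up to 5.87-fold, against 1.30-fold and 1.63-fold for 1436722_a_at. It was called in none of the comparisons. The array controls for the 3′, middle and 5′ parts of the transcript read 6271 to 15835, 4256 to 15987 and 2246 to 13051. In a fit that kept array controls, the 3′ control was lower in ER-MyoD wt at 24 h than at 0 h (log2 difference -0.45, adjusted p = 0.0296) and than at 6 h (-0.46, 0.0331), unlike 1436722_a_at. The middle and 5′ controls were at -0.78 (0.0644) and -0.63 (0.378) against 0 h. The 3′ to 5′ ratio of the controls was 1.07 to 3.61 and exceeded 2 on 3 arrays: ER-MyoD wt at 12 h replicate 3 (2.07), ER-MyoD RRR at 6 h replicate 2 (3.61) and empty retrovirus at 12 h replicate 2 (2.07). On the last 2, 1419734_at read 1779 and 1969, the highest of their groups, and on the first it read 317, the lowest of its group.

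**Figure D2:**
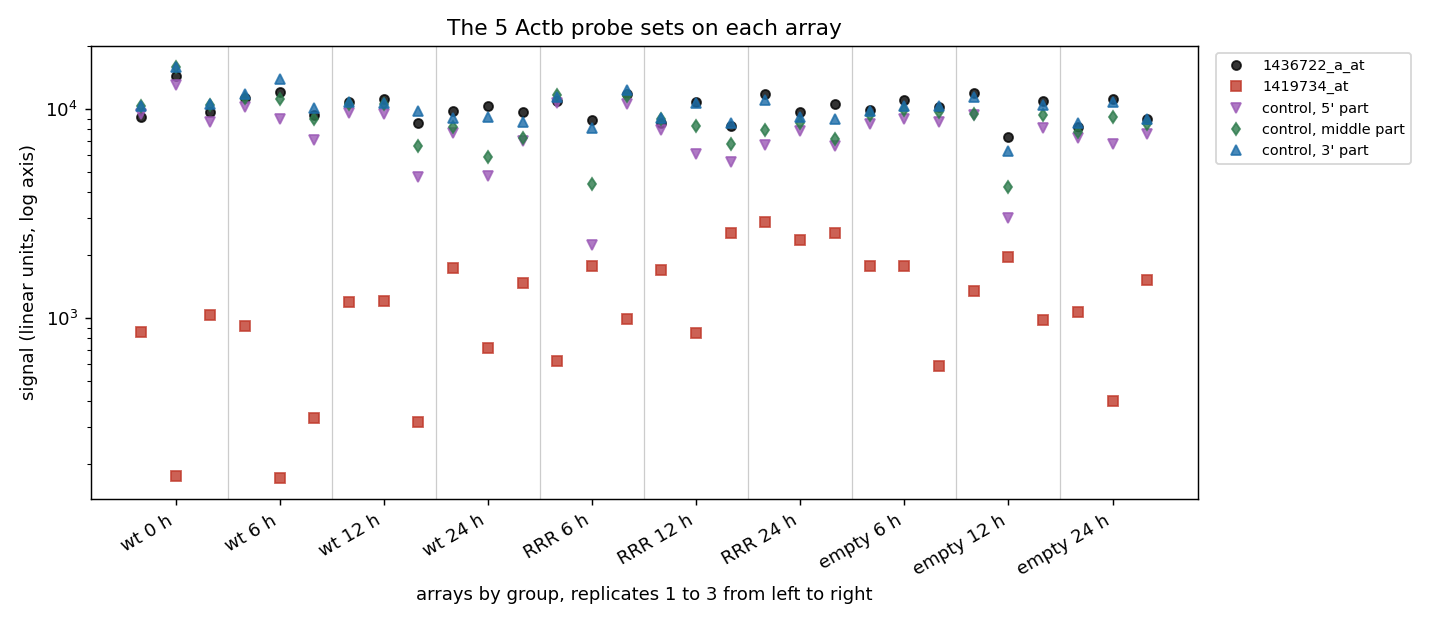
Signal of the 5 Actb probe sets (linear units on a log axis) on each of the 30 arrays, in groups of 3 separated by grey lines. The 5′ control drops to 2246 on replicate 2 of ER-MyoD RRR at 6 h, and 1419734_at spreads from 171 to 2873 while 1436722_a_at stays between 7380 and 14473.

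Each construct was compared with empty retrovirus in the same medium and hormone at the same time. With no 0 h group of empty retrovirus, differences from before 0 h cannot be told apart from those made later. Actg2 and Acta2 had their highest group means in ER-MyoD wt at 0 h (2064 and 11718). The 4 muscle actins were higher in ER-MyoD wt at every time, and they did so in opposite order: Actg2 and Acta2 differed most at 6 h and Actc1 and Acta1 at 24 h. Of the 9 fitted actin probe sets, 6 were higher at 6 h, 5 at 12 h and 5 at 24 h and none was lower, where 3.85%, 4.45% and 7.34% of all probe sets were called higher and 3.48%, 4.59% and 9.48% lower (adjusted p under 0.05). Acta1 was higher by 3.04 ± 0.38 at 6 h, 3.70 ± 0.38 at 12 h and 5.99 ± 0.38 at 24 h. Actc1 was higher by 3.14, 5.34 and 7.34 (SE 0.29), the last a 221-fold difference in mean signal. Actg2 was higher by 5.25, 5.15 and 1.64 (SE 0.27), and Acta2 by 3.22, 2.98 and 0.58 (SE 0.10). The largest adjusted p among these 12 differences was 5.54e-05, and each passed the test under every alternative tried. Actb 1436722_a_at did not pass at any time, with differences of 0.08, 0.10 and -0.13 and adjusted p of 0.609 to 0.856. Actg1 passed at 6 h only, at 0.35 ± 0.09 (adjusted p = 0.0144), and this call was lost in 6 of 17 alternatives. Among these were the fits without replicate 2 of ER-MyoD wt (0.0841), without replicate 3 of empty retrovirus (0.0999) and without quantile normalization (0.197). The dim Acta2 probe sets passed at 6 and 12 h (1444105_at) and at 24 h (1456658_at), and each of these calls was lost in 5 or 6 of 15 alternatives.

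With ER-MyoD RRR, too, the muscle actins exceeded empty retrovirus. Of the 9 probe sets, 5 were higher at 6 h, 4 at 12 h and 3 at 24 h and none was lower, where 4.05%, 2.89% and 5.16% of all probe sets were called higher and 4.65%, 2.52% and 6.78% lower. Actc1 was higher by 2.23, 4.05 and 6.94 (SE 0.29), Acta1 by 1.33, 2.28 and 4.97 (SE 0.38), Acta2 by 2.83, 2.41 and 0.36 (SE 0.10) and Actg2 by 3.12, 2.57 and 0.69 (SE 0.27). The other call at 6 h was the cytoplasmic Actg1, which was lost in 10 of 17 alternatives (adjusted p up to 0.298). Actg2 at 24 h did not pass (adjusted p = 0.096), although its 3 arrays lay above those of empty retrovirus. Acta1 at 6 h passed at adjusted p = 0.0238 and became 2.14 (4.16e-07) without replicate 2 of ER-MyoD RRR, the array with the high 3′ to 5′ ratio. The Acta1 call at 6 h was lost in 5 of 17 alternatives (adjusted p up to 0.318). Among these were the fits without replicate 1 (0.148) or 3 (0.207) of ER-MyoD RRR or replicate 2 (0.096) or 3 (0.077) of empty retrovirus. Acta2 at 24 h passed at 0.0128, and this call was lost in 5 of 17 alternatives (adjusted p up to 0.35). Among these were the fits without replicate 3 of ER-MyoD RRR (0.0532) and without quantile normalization (0.0809).

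**Figure D3:**
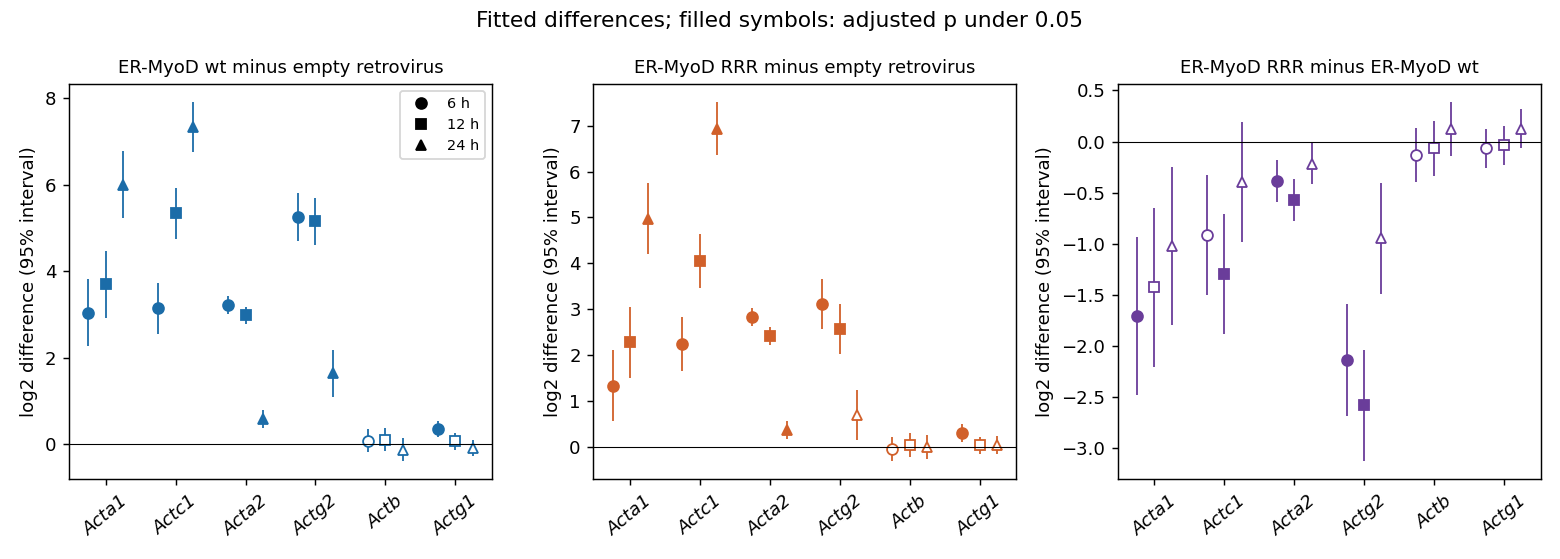
Fitted log2 differences with 95% intervals (vertical axis) for each actin gene at 6, 12 and 24 h in 3 comparisons, with filled symbols where the adjusted p was under 0.05. Actg2 reaches -2.58 between ER-MyoD RRR and wt at 12 h, and the Actb and Actg1 intervals all include 0 in that comparison.

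ER-MyoD RRR was compared with ER-MyoD wt at the same times, the fusions differing by label in the exchanged lysines. With no 0 h group of ER-MyoD RRR, differences from before 0 h cannot be told apart from those made later. All 4 muscle actins had lower means in ER-MyoD RRR at each of the 3 times, with no overlap between the arrays, and the 2 cytoplasmic actins differed by little. Of the 9 probe sets, 3 were lower at 6 h, 3 at 12 h and none at 24 h and none was higher, where 1.09%, 0.338% and 0.988% of all probe sets were called lower and 0.582%, 0.318% and 1.57% higher. At 24 h, 3 of the 9 had an unadjusted p under 0.05 in limma (Acta2, Actg2 and Acta1). Acta1, Actc1, Acta2 and Actg2 in ER-MyoD RRR shared the empty retrovirus arrays with ER-MyoD wt in the comparisons above, so those comparisons are not independent of each other.

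Among the probe sets standing for the 6 genes, Actg2 had the largest log2 difference at 6 and 12 h, and Acta1 that at 24 h. The Actg2 mean in ER-MyoD RRR was 20.1% of that in ER-MyoD wt at 6 h, 14.6% at 12 h and 50.5% at 24 h. The log2 differences were -2.13 ± 0.27 (adjusted p = 3.5e-05), -2.58 ± 0.27 (1.34e-06) and -0.95 ± 0.27 (0.0528). The first 2 passed under every alternative tried, and the third passed in 5 of them, one being the fit without replicate 3 of ER-MyoD wt at 24 h (0.0222).

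Acta1 in ER-MyoD RRR was at 32.7%, 32.0% and 46.9% of ER-MyoD wt at 6, 12 and 24 h. It passed at 6 h (log2 difference -1.71 ± 0.38, adjusted p = 0.0149), but the difference shrank to -0.90 (0.0492) without replicate 2 of ER-MyoD RRR. The difference did not pass without replicate 1 (0.0743) or 2 (0.0506) of ER-MyoD wt, or with only the compared groups fitted (0.355). At 12 h it was -1.43 ± 0.38 (0.0874) and at 24 h -1.02 ± 0.38 (0.197). Without the 3 arrays with an Actb 3′ to 5′ ratio above 2, the differences at 12 and 24 h were -1.59 and -1.02 with adjusted p of 0.000363 and 0.00433. None of the 3 was a 24 h array, so the 24 h difference was unchanged. Its adjusted p changed with the spread, which all groups share in the fit.

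Actc1 in ER-MyoD RRR was at 48.4%, 38.9% and 71.3% of ER-MyoD wt. Its log2 difference was -0.91 ± 0.29 at 6 h (adjusted p = 0.111), -1.30 ± 0.29 at 12 h (0.0246) and -0.39 ± 0.29 at 24 h (0.655, 95% interval -0.98 to 0.19). The 12 h call was lost when any 1 of its 6 arrays was left out (adjusted p of 0.0562 to 0.114). Acta2 was at 81.8%, 65.9% and 79.9%, with log2 differences of -0.39 ± 0.10 (0.0392), -0.57 ± 0.10 (0.00202) and -0.22 ± 0.10 (0.349). Its 6 h call was lost without any 1 of its 6 arrays (0.0725 to 0.152), and both calls were lost without quantile normalization (0.563 and 0.123).

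Actb 1436722_a_at was at 96.7%, 91.1% and 107% of ER-MyoD wt and Actg1 at 102%, 94.0% and 105%. Their 95% intervals in the 3 comparisons ran at most from -0.40 to 0.39 on the log2 scale, and no p passed. Whether the shortfall of ER-MyoD RRR changed with time was tested as an interaction, and no actin probe set passed from 6 to 24 h or from 12 to 24 h, where 0.819% and 0.091% of all probe sets did in limma; 1 and 3 of the 9 had an unadjusted p under 0.05. The Actg2 shortfall narrowed by 1.63 ± 0.38 from 12 to 24 h (unadjusted p = 0.000178, adjusted p = 0.101) and by 1.19 ± 0.38 from 6 to 24 h (unadjusted p = 0.00388, adjusted p = 0.157). Acta1, Actc1 and Acta2 gave 0.41, 0.90 and 0.35 from 12 to 24 h, with adjusted p of 0.961, 0.681 and 0.57. The unadjusted p of Actc1 and Acta2 there were 0.0345 and 0.0169. Myog, the myogenic factor that follows MyoD, was lower in ER-MyoD RRR at 12 h (log2 difference -1.84 ± 0.22, adjusted p = 1.44e-05), with signals of 128 to 185 against 562 to 669. Myog did not pass in limma at 6 h (-0.66, adjusted p = 0.145) or 24 h (-0.54, 0.272). Its change from 12 to 24 h, 1.30 ± 0.31, did not pass either (adjusted p = 0.123).

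Over time within a construct, the direction differed between the actin classes. A change from 0 h holds medium, hormone and MyoD together. In ER-MyoD wt, 1 of the 9 probe sets was higher at 6 h than at 0 h (Actc1, 10.5% of all probe sets called in either direction). At 12 h, 1 was higher and 2 were lower (Actc1 against Actg2 and Actg1, 11.8%; the Actg1 call, at adjusted p = 0.0238, was lost in 8 of 17 alternatives, among them median centring at 0.176 and the signals as deposited at 0.111), and at 24 h, 2 were higher and 4 lower (20.4%). From 6 to 24 h, 2 rose and 4 fell in ER-MyoD wt (14.9%), 2 rose and 2 fell in ER-MyoD RRR (15%), and 1 rose with empty retrovirus (9.01%). In ER-MyoD RRR, Actc1 rose by 5.0 ± 0.29 and Acta1 by 3.81 ± 0.38 over these hours, while the log2 difference was -1.80 ± 0.27 for Actg2 and -0.30 ± 0.10 for Acta2. The Acta2 fall in ER-MyoD RRR, at adjusted p = 0.0343, was lost without any 1 of its 6 arrays (0.0534 to 0.133).

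Tests of whether the gap to empty retrovirus changed from 6 to 24 h were added after the data had been seen. In ER-MyoD wt, 5 probe sets passed (8.08% of all): the gap grew for Actc1 (4.19) and Acta1 (2.96) and shrank for Actg2 (-3.61), Acta2 (-2.64) and Actg1 (-0.45). In ER-MyoD RRR, 4 passed (5.49% of all): 4.71 for Actc1, 3.64 for Acta1, -2.42 for Actg2 and -2.47 for Acta2. For Acta2, most of the closing was on the empty retrovirus side, which rose by 2.16 while ER-MyoD wt changed by -0.47. For Actg2 it was on the ER-MyoD wt side, which changed by -2.99 while empty retrovirus changed by 0.62 (adjusted p = 0.183).

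The make-up of the actin pool was described as the share of each gene in the summed signal of 6 probe sets, 1 per gene. Probe sets differ in how strongly they bind, so a share is not a share of transcripts, and only the same share may be set against itself across groups. No test was made of these shares. The striated share (Acta1 plus Actc1) in ER-MyoD wt was 0.961% ± 0.338 at 0 h (SD, n = 3), 1.65% ± 0.253 at 6 h, 5.11% ± 0.59 at 12 h and 28.0% ± 1.2 at 24 h. In ER-MyoD RRR it was 0.758% ± 0.238 at 6 h, 2.42% ± 0.071 at 12 h and 21.0% ± 1.3 at 24 h, below ER-MyoD wt at each time by more than the SDs. With empty retrovirus it was at most 0.255% ± 0.020.

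The smooth muscle share (Acta2 plus Actg2) was 37.5% ± 0.55 in ER-MyoD wt at 0 h and 22.3% ± 1.4 at 24 h, and in ER-MyoD RRR it was 29.7% ± 1.1 at 6 h and 19.96% ± 1.11 at 24 h. With empty retrovirus it went from 5.56% ± 0.76 at 6 h to 21.7% ± 0.89 at 24 h, so that at 24 h the 3 constructs lay within 3 percentage points of each other. The cytoplasmic share was 49.7% ± 0.49 in ER-MyoD wt at 24 h, 59.1% ± 2.3 in ER-MyoD RRR and 78.0% ± 0.90 with empty retrovirus. The summed signal itself differed at 24 h: 36886 ± 2730 in ER-MyoD wt, 32862 ± 1818 in ER-MyoD RRR and 21823 ± 2953 with empty retrovirus. A share can thus differ where the signal of its genes does not, and the reverse. Within the striated pair, Acta1 made up 68.8% ± 6.5 of the summed signal in ER-MyoD wt at 0 h, 38.0% ± 4.0 at 6 h, 18.5% ± 5.5 at 12 h and 19.3% ± 1.2 at 24 h. At 24 h it was 13.5% ± 1.8 in ER-MyoD RRR. Actg2 made up 5.76% ± 0.95 of the whole in ER-MyoD wt at 0 h and 0.378% ± 0.082 at 24 h.

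**Figure D4:**
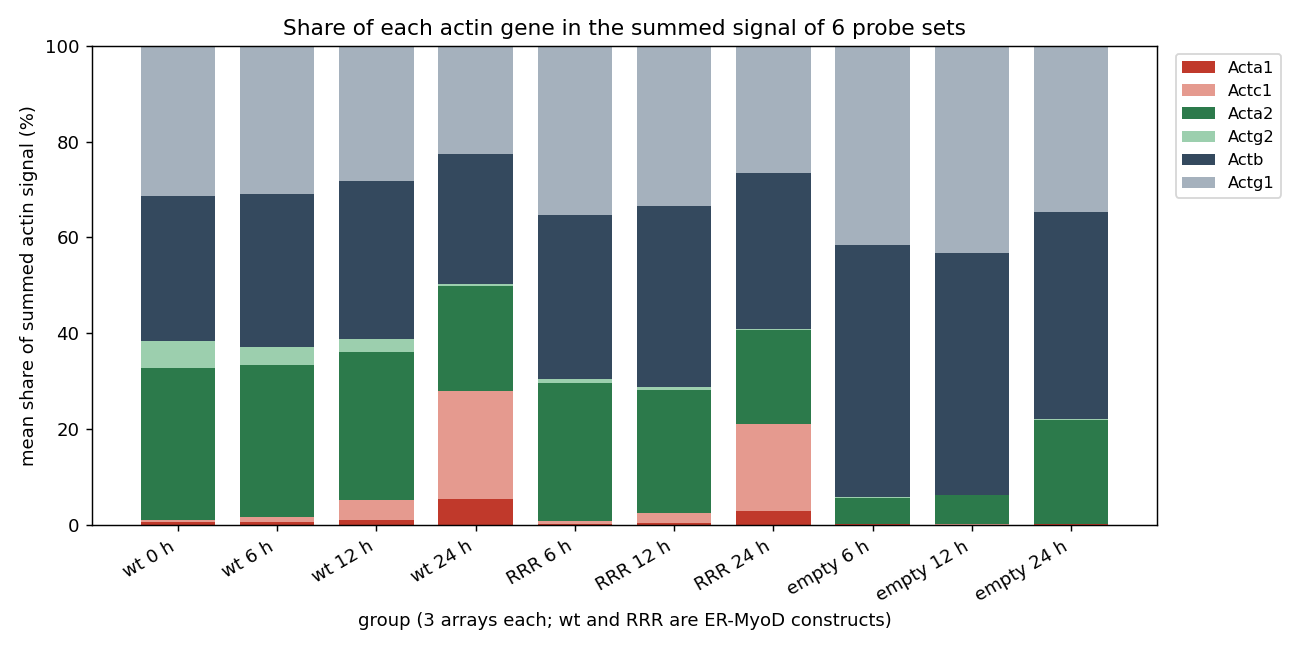
Mean share of each actin gene in the summed signal of 6 probe sets (percent) for the 10 groups of 3 arrays, stacked to 100. Actc1 reaches 22.6% in ER-MyoD wt and 18.1% in ER-MyoD RRR at 24 h.

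The genes with the most similar pattern were ranked by Pearson's r over the 10 group means, among 8106 genes that spanned at least 1 on the log2 scale. The points share arrays and groups, so r is a description without a test. Closest to Acta1 were Eno3, the muscle enolase (0.976), and Cryab, alpha-B crystallin, a small heat shock protein of muscle (0.968), then Akt2, Paxx and Mief2 (0.962 to 0.964). Closest to Actc1 were Zswim6 (0.990), the splicing regulator Rbfox2 (0.987) and Klhl40 (0.986), a stabiliser of thin filament proteins, then St3gal5 and Pex19. Closest to Actg2 were Dstn (0.969), which severs and depolymerises actin filaments, Csrp1 (0.964), a LIM protein of smooth muscle, Htra2, the smooth muscle myosin light chain Myl9 (0.957) and Fhl1. Closest to Acta2 were the matrix proteoglycan Bgn (0.969) and the hyaluronan-binding Cemip (0.968), then Plxdc2, Nuak1 and 1700052K11Rik. Actb and Actg1 spanned 0.20 and 0.47 on the log2 scale over the groups. The Actb span was below the SD of replicates in some groups, up to 0.28 (empty retrovirus at 12 h), so little can be read from its ranking. Closest to Actb were Angptl7 (0.862), Sorcs1, Tnni3k, Tmod2 and Mras, and closest to Actg1 were Thy1 (0.972), 1700009N14Rik, Vdr, Star and Bmper. Among the actins themselves, r was 0.940 for Acta1 with Actc1, 0.824 for Acta2 with Actg2 and 0.528 for Actb with Actg1. Across classes it reached 0.789 for Actg2 with Actg1, 0.655 for Acta1 with Acta2 and 0.553 for Acta2 with Actg1, and the lowest was -0.165 for Actc1 with Actg1.

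The smooth muscle markers were mixed. Tagln, an actin-binding protein of smooth muscle also known as SM22, had a mean signal of 8553 ± 1730 in ER-MyoD wt at 0 h, 6221 ± 652 at 6 h, 4356 ± 175 at 12 h and 601 ± 35.6 at 24 h. In ER-MyoD RRR it was lower than in ER-MyoD wt by 0.76, 1.30 and 0.80 at 6, 12 and 24 h (log2 differences -0.76, -1.30 and -0.80, adjusted p of 0.0138, 3.43e-05 and 0.00585). Myl9 was at -1.62 (0.00191), -1.47 (0.00732) and -0.32 (0.74). Of the 10 smooth muscle markers, 3, 2 and 3 were lower in ER-MyoD RRR than wt at 6, 12 and 24 h and none was higher, against 1.5%, 0.649% and 1.45% of all genes. Pcp4, a calmodulin regulator, was at 1.004 at 12 h and did not pass (adjusted p = 0.442). Between ER-MyoD wt and empty retrovirus at 24 h, 2 of the 10 were higher and none was lower, where 10.5% of all genes were called higher and 13.1% lower. The 2 were Smtn, smoothelin (2.31), and Lmod1, a leiomodin of smooth muscle (2.96). The summed signal of the 10, most of which was Tagln at 0 h, ran from 8633 to 11626 in ER-MyoD wt at 0 h, from 1437 to 1640 at 24 h, and from 508 to 865 over the empty retrovirus arrays. The part of the 10 markers in the Actg2 and Acta2 results was not tested, and Myh11 and Cnn1 stayed near the bottom of the scale as given above.

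For SRF, the factor that reads CArG boxes, and its listed partners, the share called against empty retrovirus was above that of all genes. The list is short, and its calls were too few to be read as a trait of the list. Of SRF and 8 partners, 1 was higher and 2 were lower in ER-MyoD wt than empty retrovirus at 6 h, none and 2 at 12 h, and none and 3 at 24 h, against 11.1%, 13.8% and 23.6% of all genes called in either direction. Srf itself was higher at 6 h by 0.65 (adjusted p = 0.00535) in ER-MyoD wt and by 0.72 (0.00188) in ER-MyoD RRR, and it did not pass at 12 or 24 h. Its coactivators Mrtfa and Mrtfb did not pass in any of these comparisons or between ER-MyoD RRR and wt. Myocd, the smooth muscle coactivator, had group means of 4.39 to 25.9 and did not pass either. The 3 that were lower at 24 h were Elk3 (-1.79) and Elk4 (-0.87), ETS factors that share SRF as a partner, and Scai (-0.89, adjusted p = 0.0136), an inhibitor of MRTF. None of the 9 passed between ER-MyoD RRR and wt at any time in limma (0, 0 and 1 had an unadjusted p under 0.05), beside 2.51%, 1.16% and 4.14% of all genes, and their median difference was at most 0.147, beside 0.047 at most for all genes.

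Some genes of actin folding were higher at 24 h, and those of the thin filament were split. Of 16 measured folding and maturation genes, 6 were higher in ER-MyoD wt than empty retrovirus at 24 h and none was lower, beside 10.5% of all genes called higher. The summed signal of the 16 was nonetheless lower at 24 h than at 6 h in each construct (medians of 35075 and 40045 in ER-MyoD wt, 27355 and 40115 with empty retrovirus). None was called at 6 or 12 h in limma, where 2 and 1 had an unadjusted p under 0.05. Setd3, the methyltransferase that modifies an actin histidine, was higher by 1.99 ± 0.16 (adjusted p = 2.26e-10) and by 1.53 in ER-MyoD RRR (7.75e-08), and Pdcl3, a chaperone cofactor, by 1.05. Of 20 genes for thin filament length, capping and tropomyosin, 7 were higher and 4 lower at 24 h (23.6% of all genes in either direction). Klhl41 and Klhl40, which keep thin filament proteins stable in skeletal muscle, were higher by 5.19 and 5.28, and the cytoplasmic tropomyosin gene Tpm4 was lower (-1.41). Tpm1, another tropomyosin, was higher at 6 h (1.43) and lower at 24 h (-1.29), and lower in ER-MyoD RRR than wt at 12 h (-0.75, adjusted p = 0.0162).

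Genes that turn over, nucleate or anchor filaments were split. Of 13 for monomer binding and turnover, 3 were higher and 4 lower in ER-MyoD wt than empty retrovirus at 24 h, where 10.5% of all genes were called higher and 13.1% lower: Cap2, a monomer-binding protein of striated muscle, was higher (1.92), and profilin 2 (Pfn2, -1.39) and the severing protein gelsolin (Gsn, -0.84) were lower. Of 19 nucleation genes, 1 was higher and 6 were lower, among them Arpc5 (-1.33) and Arpc1a (-0.69) of the Arp2/3 complex and the formin Daam1 (-1.56). Of 12 crosslinkers and anchors, 2 were higher and 5 lower, with plastin 3 (Pls3) at 1.28, alpha-actinin 1 (Actn1) at -0.85 and filamin A (Flna) at -1.29. Between ER-MyoD RRR and wt at 24 h, 2, 2 and 1 genes of these lists were higher and none was lower, beside 2.69% of all genes called higher and 1.45% called lower.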

How the data were processed

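The deposited series table held linear signal intensities of 30 mouse oligonucleotide arrays, hybridised with biotin-labelled RNA per the labels. The software behind the deposited intensities is not given in the sources used here. The mean of each array without its highest and lowest 2% of probe sets lay between 149.948 and 149.964, so the intensities had already been scaled between arrays. Genes came from the platform annotation: 34945 fitted probe sets had 1 symbol, 932 several and 9160 none, and none was named from several. After 64 array controls were left out, intensities were put on log2(signal + 16), quantile-normalized and fitted over 10 group means (limma 3.58.1, R 4.3.3, trended empirical Bayes, 20 residual degrees of freedom). P-values were adjusted by Benjamini-Hochberg over all 45037 probe sets and called under 0.05. The fit was tested on simulated data. Shares, order and promoter motifs were computed in Python 3.11.15.

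The 6 genes and the gene lists were chosen with earlier results of these data known. Of 157 listed genes, 147 were measured. The text names every actin probe set, Srf, Mrtfa, Mrtfb, Myocd and Myog, and the 5 genes most like each actin. Other list genes were taken from ER-MyoD wt minus empty retrovirus at 24 h and from ER-MyoD RRR minus wt at 12 h. In each of these, the 3 genes of a list with the smallest p could be named. Not all list genes given by this rule are named, and Myh11 and Cnn1 were named after their values were seen. A gene with several probe sets is represented by its brightest. Replicates of a group correlated at r of 0.926 to 0.966 over probe sets. Precision is limited by the small number of arrays.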

Additional observations from a re-analysis of the deposited data

Results flagged for a closer look

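The difference between constructs changed with time for several actins, as tested by an interaction term (6 to 24 h, log2 scale). For ER-MyoD wt against empty retrovirus, the difference grew by 4.19 for Actc1 and 2.96 for Acta1, and changed by -3.61 for Actg2, -2.64 for Acta2 and -0.45 for Actg1. The Actg1 change (adjusted p = 0.0293) was lost when any of 7 arrays was left out singly (0.0547 to 0.0941) and without quantile normalization (0.7). For ER-MyoD RRR against empty retrovirus, it grew by 4.71 for Actc1 and 3.64 for Acta1, and changed by -2.42 for Actg2 and -2.47 for Acta2. These 2 sets of values share the empty retrovirus arrays.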

How the results depend on the processing

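Of the actin results recomputed under other settings, 2880 kept their side of the threshold, 111 lost the call and 37 gained it. None that was called changed sign, while some uncalled results did. For Actb 1436722_a_at, for example, the 12 h log2 difference of ER-MyoD wt from empty retrovirus ran from -0.05 to 0.24. The count of called actin probe sets for ER-MyoD RRR minus empty retrovirus at 6 h went from 5 to 3, and for ER-MyoD RRR minus wt at 6 h from 3 to 1, when only the compared groups were fitted. For ER-MyoD RRR minus wt at 12 h it went from 3 to 1 under median centring. At 24 h it went from 0 to 2 with a pseudocount of 64 and to 2 without the 3 arrays with an Actb 3′ to 5′ ratio above 2 (chosen after seeing the data), and to 1 with a mean signal of at least 50, with 1 probe set per gene and with only the compared groups. For ER-MyoD wt at 6 h minus 0 h it went from 1 to 2 with a pseudocount of 64 and with only the compared groups, and at 24 h minus 6 h from 6 to 3 on the signals as deposited. The change of ER-MyoD RRR minus wt to 24 h, from 6 h or from 12 h, went from 0 to 1 with a pseudocount of 64 (Actg2). The cause was not tested. Leaving out 1 array gave 3 to 5 calls for ER-MyoD RRR minus empty retrovirus at 6 h, 1 to 2 for ER-MyoD RRR minus wt at 6 h and 0 to 1 at 24 h. The other counts stayed within 1.5 times of the main count when 1 array was left out.

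Over all probe sets, ER-MyoD RRR minus wt had 752, 295 and 1154 calls at 6, 12 and 24 h, against 331, 130 and 512 under median centring and 43, 113 and 399 with only the compared groups. Without a trend of the spread the 6 and 12 h counts were 455 and 188. Its change from 6 to 24 h had 369 calls, against 47 (median centring), 83 (compared groups), 182 (no trend) and 556 (mean signal of at least 50), and from 12 to 24 h 41, against 2, 19, 10 and 63, 79 with a pseudocount of 64 and 25 as deposited. With only the compared groups, ER-MyoD wt minus empty retrovirus at 12 h went from 4074 to 2465, ER-MyoD RRR minus empty retrovirus at 6 and 12 h from 3917 and 2435 to 1809 and 1341, and ER-MyoD RRR at 24 h minus 6 h from 6776 to 4291. With 1 probe set per gene, 18193 rather than 45037 were tested, and counts were lower by construction. The scaling moved the median of all probe sets by at most 0.13 on the log2 scale (0.132, ER-MyoD RRR at 24 h minus 6 h, as deposited). Quantile-normalized signals moved 2 and summing all probe sets of a gene 12 of 30 class shares beyond 1 SD, by at most 1.11 and 2.92 percentage points.

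Labels give the groups the same replicate numbers, but the deviations of same-numbered arrays correlated above 0.1 in only 16 of 135 pairs (median r 0.0208, and -0.0108 for different numbers), so the numbers were not taken as a pairing. With the replicate block, 6 rather than 5 actin probe sets passed in the change of ER-MyoD wt minus empty retrovirus from 6 to 24 h, the other 18 counts were the same as without the block, and 18 of 30 arrays correlated best with their own number, which is a hint from the data, not the design.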
